A study of Sus scrofa with 23 samples.

Results

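Myostatin, its antagonist follistatin, the myogenic regulatory factors and the MEF2 factors were followed in the Longissimus, a long back muscle, of pigs at 115 kg body weight. The 9 genes sought were MSTN, FST, MYOD1, MYOG, MYF5, MYF6, PAX7, MEF2A and MEF2C. Every non-control probe whose gene name was one of these symbols, or whose description gave the symbol in parentheses, was taken. This gave 14 of 43603 probes, all found by their gene name. They stood for 6 of the 9 genes, among 5210 named genes on the array, with 1 probe for MSTN, 1 for MYOD1, 2 for MYOG, 2 for FST, 4 for MEF2A and 4 for MEF2C. No probe met the rule for MYF5, MYF6 or PAX7.

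Residual feed intake (RFI) is the feed an animal eats beyond what its growth and maintenance account for. The low-RFI group held 7 pigs of the RFIneg strain fed ad libitum. The restricted group held 8 pigs of the high-RFI strain, RFIpl, which were given feed at the level eaten by the RFIneg pigs. The high-RFI group held 8 RFIpl pigs fed ad libitum. RNA of each pig was labelled with Cy3 and hybridised to a single-colour Agilent array. Low-RFI and high-RFI pigs differed in strain, both fed ad libitum, so strain and the amount eaten cannot be told apart there. Restricted and high-RFI pigs differed in feeding. Low-RFI and restricted pigs differed in strain at a shared level of feed. The breed, sex and age of the pigs were not given in the sources used here. The RNA came from whole muscle, so fewer cells of a type and less RNA per cell cannot be told apart.

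Myostatin is a secreted protein of the TGF-beta family that limits muscle growth through activin receptors and SMAD proteins, and follistatin binds and blocks it. MYOD1, MYF5, MYOG and MYF6 are basic helix-loop-helix factors that commit cells to the muscle lineage and drive their differentiation, while PAX7 marks satellite cells, the stem cells of muscle. MEF2 factors bind muscle gene promoters beside them, and in adult fibres both families continue to act on genes of the contractile and metabolic machinery.

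Levels below are log2 processed signals minus the 75th percentile of the same array, in log2 units. A level of 0 is therefore the brightness of the array's 75th percentile, and the level of 1 probe cannot be set against that of another. Between 41.6% and 79.0% of probes lay well above background on an array. The arrays lay on 6 slides scanned on 2 days, with all groups on every slide, and the 4 arrays of slide 3 were among the 5 with the lowest such shares. In a principal component analysis, component 1 took 16.6% of the variance, and slide accounted for 60.7% and group for 1.6% of it. Component 2 took 11.1%, with group at 35% and slide at 11.4%, and component 3 took 9.4%, with group at 22.7% and slide at 52.7%. Correlations between arrays ran from 0.967 to 0.990. Of the 43603 probes, 27799 were tested, namely those that in some group had 6 or more arrays with a signal well above background. All 14 member probes were among them. Each of the 14 was well above background on all 23 arrays except MYOG A_72_P213577, which was so on 21, and none was saturated. The number of arrays limits the precision.

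None of the 14 probes changed in any of the 3 comparisons at an adjusted p under 0.05 in limma. Of all tested probes, 0.122% were called between low-RFI and high-RFI pigs, 0.0036% between restricted and high-RFI pigs and 0.162% between low-RFI and restricted pigs. In the F test over the 3 groups no member passed either, against 0.137% of all probes, and 1 of 14 had an unadjusted p under 0.05, against 12.5% of all probes. The lowest adjusted p of a member was 0.545, 0.427 and 0.328 in these 3 comparisons. The groups overlapped for every member probe in every comparison, while they did not overlap for 0.353%, 0.0791% and 0.227% of all probes. At an unadjusted p under 0.05, there were 0 member probes between low-RFI and high-RFI pigs, where 11.1% of all probes passed. Between restricted and high-RFI pigs 1 of 14, a MEF2A probe, had such a p, against 9.76% of all probes. Between low-RFI and restricted pigs it was again 1 of 14, a MEF2C probe, against 10.2%. In simulated data with the spread of these arrays, 79 of 100 probes changed by 1 log2 unit were called for low-RFI against high-RFI. Of 100 changed by 0.5, 30 were called. The simulated noise was independent between probes and arrays and held no shared slide effect. These shares are therefore not the power for the 14 probes.

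**Figure D1:**
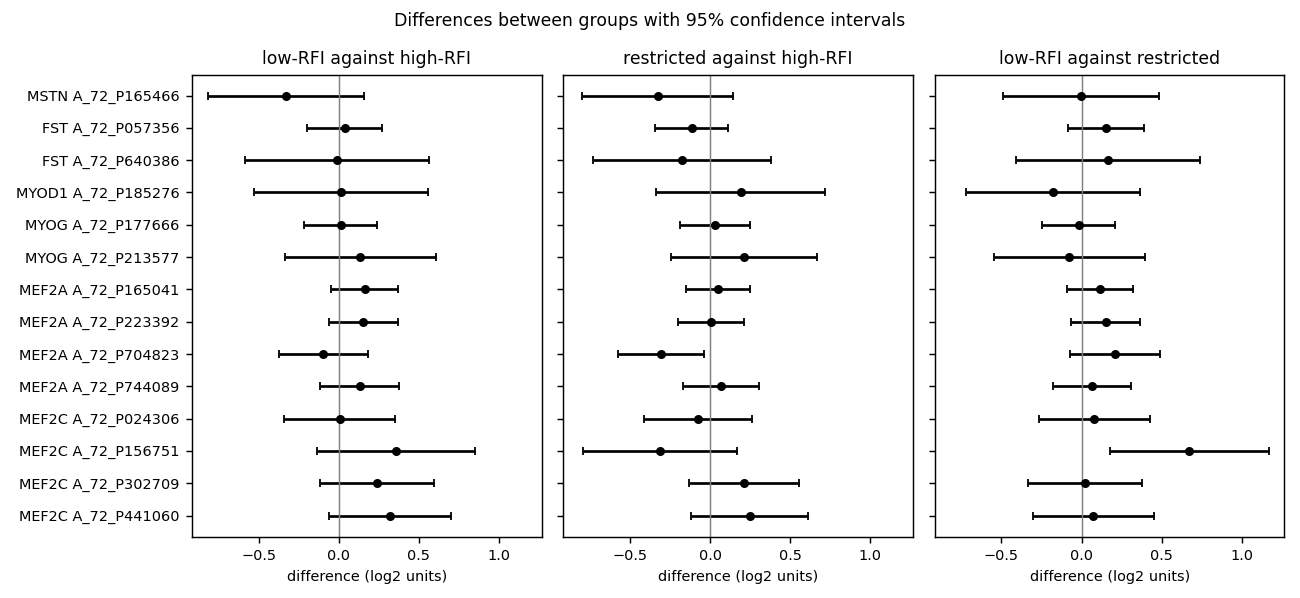
Difference in level between groups (log2 units, x axis) for each of the 14 probes (y axis), with 95% confidence intervals of the limma fit, in the 3 comparisons. Of the 42 intervals, 40 include 0; those of MEF2A A_72_P704823 for restricted against high-RFI and of MEF2C A_72_P156751 for low-RFI against restricted do not, and neither passes the adjusted threshold.

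The directions of the member differences were mixed. For low-RFI against high-RFI, 11 probes lay above 0 and 3 below, with a median difference of 0.08 and a range of -0.33 to 0.36. Over all probes the median was 0.02, the 5th to 95th percentile ran from -0.36 to 0.36, and 44.7% lay below 0. For restricted against high-RFI, 8 lay above 0 and 6 below, with a median of 0.02 against 0.01 for all probes, of which 46.9% lay below 0. For low-RFI against restricted, 10 lay above and 4 below, with a median of 0.08 against 0.02 for all probes, of which 45.3% lay below 0. Probes of the same gene share its RNA, so these counts are not counts of independent genes. For 21 of the 42 differences the sign held under all settings tried, and for the others, all of them uncalled, it turned under at least 1. The 95% intervals reached no lower than -0.82 and no higher than 1.17 log2 units, in any comparison.

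Myostatin (MSTN), the ligand, was read by a single probe, A_72_P165466. MSTN had a lowest, median and highest level of -1.09, -0.31 and 0.29 in low-RFI pigs. In restricted pigs the same values were -1.18, -0.44 and 0.26. In high-RFI pigs they were -0.41, -0.23 and 0.75. The 3 groups overlapped, and the highest level was that of a high-RFI pig. The means were -0.35 ± 0.51 in low-RFI (SD, n = 7), -0.35 ± 0.48 in restricted (n = 8) and -0.02 ± 0.44 in high-RFI pigs (n = 8). The low-RFI against high-RFI difference was -0.33 (SE 0.24, 95% interval -0.82 to 0.16, 0.796-fold), with a limma adjusted p of 0.654. The restricted against high-RFI difference was -0.33 (SE 0.23, interval -0.80 to 0.14, adjusted p 0.693). Both differences were smaller than the spread between pigs of a group, and both rest on the same high-RFI pigs. Between low-RFI and restricted pigs the difference was -0.0012, with an interval of -0.49 to 0.49. Within the first scan day the low-RFI against high-RFI difference was -0.17 and within the second -0.55, and 4 of 6 slides gave a negative value.

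Follistatin (FST), which binds myostatin and activins, was read by 2 probes at bases 229 and 737 of the transcript, as the files number it. FST A_72_P057356 had levels of -0.0049, 0.47 and 0.55 (lowest, median, highest) in low-RFI pigs. The restricted pigs had 0.12, 0.24 and 0.41. The high-RFI pigs had 0.0039, 0.33 and 0.80. All restricted pigs lay inside the range of both other groups, and their SD was the smallest at 0.10, against 0.19 for low-RFI and 0.30 for high-RFI pigs, and the spreads were not tested. The difference was 0.04 (SE 0.11, adjusted p 0.945, limma) between low-RFI and high-RFI pigs and -0.12 (SE 0.11, adjusted p 0.811) between restricted and high-RFI pigs. Between low-RFI and restricted pigs it was 0.15 (SE 0.11, adjusted p 0.697). That difference was above 0 on all 6 slides, and its exact two-sided permutation p was 0.0674. FST A_72_P640386 gave -0.01, -0.18 and 0.17 in the same order, with SEs of 0.27 to 0.28. Across the 23 pigs the 2 FST probes had an r of 0.729 and a Spearman rho of 0.678. That r was past the threshold, with a permutation p of 0.00022 adjusted over 14 pairs of probes of 1 gene, and r was 0.636 without the 2 farthest pigs.

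MYOD1, the factor that commits cells to the muscle lineage, was read by 1 probe, A_72_P185276.
MYOD1 A_72_P185276: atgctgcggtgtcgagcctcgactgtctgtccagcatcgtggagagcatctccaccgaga
Its lowest, median and highest levels were -2.02, -0.9998 and -0.57 in low-RFI pigs. In restricted pigs they were -1.76, -0.82 and -0.17. In high-RFI pigs they were -2.02, -1.01 and -0.24. The groups covered almost the same range, and each spread over more than 1 log2 unit. The means were -1.06 ± 0.53 in low-RFI, -0.89 ± 0.52 in restricted and -1.08 ± 0.56 in high-RFI pigs. The low-RFI against high-RFI difference of 0.01 (SE 0.26) covered an interval of -0.53 to 0.56, with a limma adjusted p of 0.992. It was 0.34 within the first scan day and -0.44 within the second. Between restricted and high-RFI pigs the difference was 0.19 (SE 0.25, adjusted p 0.891).

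MYOG (myogenin), which drives fusion and differentiation of myoblasts, was read by 2 probes. The brighter lies at the end of the coding sequence, with the stop codon as its final bases in capitals.
MYOG A_72_P177666: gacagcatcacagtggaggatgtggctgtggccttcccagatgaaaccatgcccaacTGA
This probe had levels of 2.16, 2.41 and 2.50 (lowest, median, highest) in low-RFI pigs. The restricted pigs had 2.14, 2.34 and 2.67. The high-RFI pigs had 1.96, 2.40 and 2.75. The high-RFI pigs held both the lowest and the highest value, and their SD was 0.28 against 0.13 in low-RFI and 0.15 in restricted pigs. All 3 differences lay between -0.02 and 0.03, with SEs of 0.11 and limma adjusted p of 0.970 and above. All 3 of the 95% intervals lay between -0.24 and 0.25 log2 units. These values depended on the scaling. With normexp background correction the probe gave -0.15 for low-RFI against high-RFI and -0.52 for restricted against high-RFI. For low-RFI against restricted it gave 0.37, and all 3 remained uncalled. The dim probe A_72_P213577, annotated to another GenBank entry, had means of -2.93 ± 0.43, -2.85 ± 0.35 and -3.06 ± 0.57 in low-RFI, restricted and high-RFI pigs. Its levels did not follow those of the brighter probe, with an r of 0.06 (adjusted permutation p 0.788) over 23 pigs. Within the scan days that r was 0.33 and 0.57. Which of the 2 probes follows MYOG RNA more closely was not tested, so the values of both are uncertain as a measure of MYOG.

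**Figure D2:**
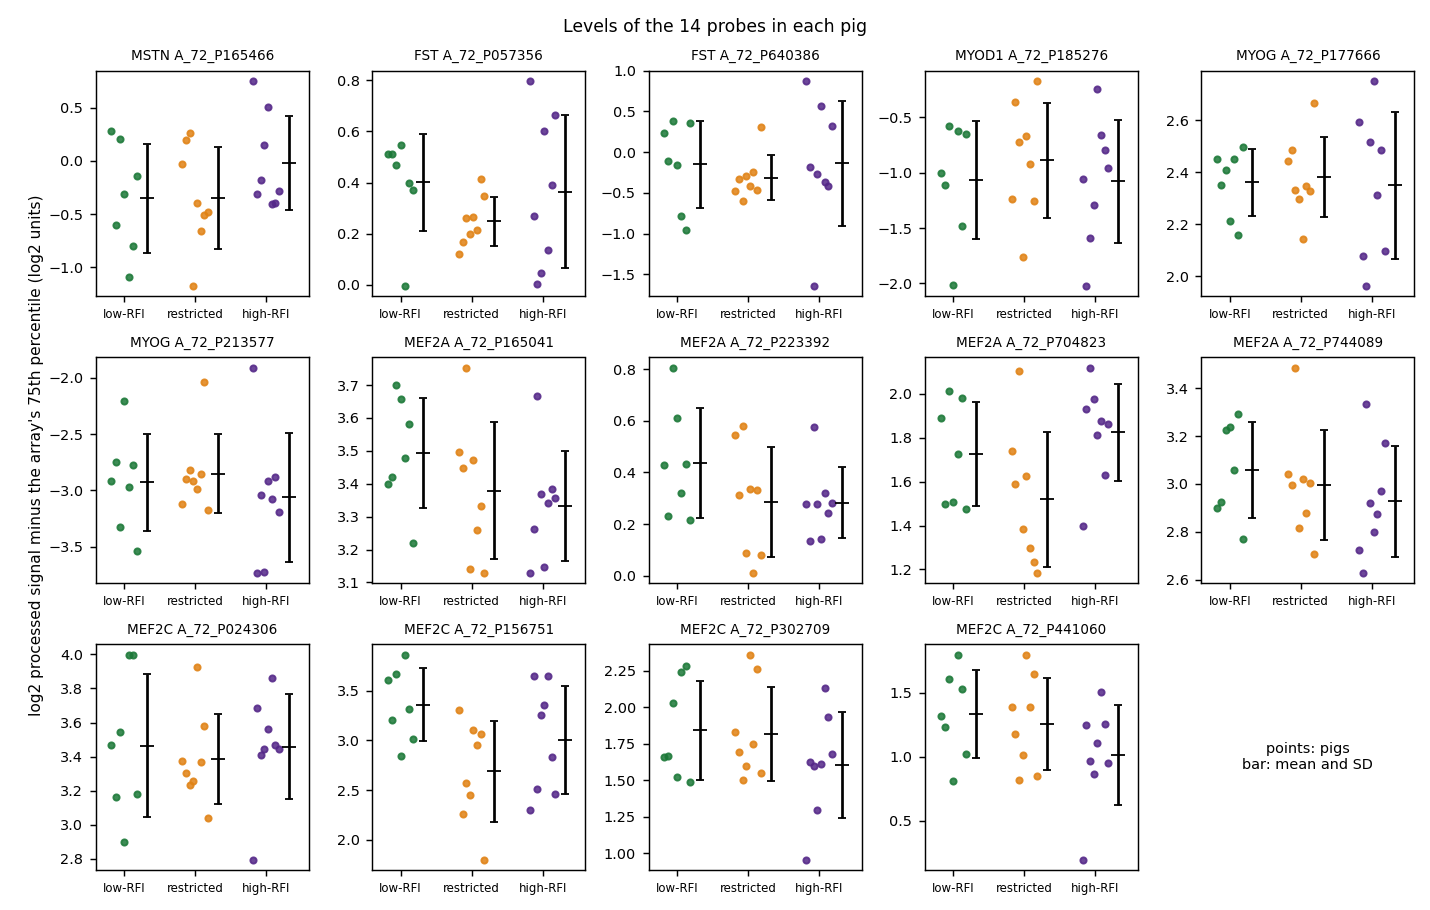
Level of each of the 14 probes (y axis, log2 processed signal minus the array's 75th percentile) in each pig (points) of the low-RFI, restricted and high-RFI groups (x axis), with the mean and SD beside them. The groups overlap in every panel; MEF2C A_72_P156751 has means of 3.36, 2.69 and 3.003 in low-RFI, restricted and high-RFI pigs.

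MEF2A, a MADS-box factor that binds muscle gene promoters, had 4 probes. Probes A_72_P704823, at base 199, and A_72_P223392, at base 1183, are annotated to transcript variant 2. Probes A_72_P744089, at base 2082, and A_72_P165041, at base 2126, are annotated to transcript variant 1. Bases of the 2 variants are numbered separately. The probes at 2082 and 2126 share the run cttgcagaaacctaga of 16 bases and so read partly the same stretch. MEF2A A_72_P704823 had levels of 1.47, 1.73 and 2.01 (lowest, median, highest) in low-RFI pigs. Restricted pigs had levels of 1.18, 1.49 and 2.103. High-RFI pigs had levels of 1.40, 1.87 and 2.12. The restricted pigs held the lowest values, with 1 of the 8 near the top of the high-RFI range. Their mean was 1.52 ± 0.31 against 1.83 ± 0.22 in high-RFI pigs, a difference of -0.31 (SE 0.13, 95% interval -0.57 to -0.04, 0.809-fold). The unadjusted limma p was 0.027 and the exact permutation p 0.0418, but over all probes the adjusted p was 0.427. The difference was -0.45 within the first scan day and -0.17 within the second, below 0 on 5 of 6 slides, and -0.22 without the 4 arrays of slide 3.

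The other MEF2A probes lay near 0 in that comparison. For restricted against high-RFI, A_72_P165041 gave 0.05, A_72_P744089 gave 0.07 and A_72_P223392 gave 0.0035, each with an SE of 0.10 to 0.11. With normexp background correction these became -0.74, -0.60 and -0.14 beside -0.72 for A_72_P704823, whose adjusted p was then 0.195 in limma. For low-RFI against high-RFI these 3 gave 0.16, 0.13 and 0.15, while A_72_P704823 gave -0.10, and no adjusted p was below 0.587 in limma. Low-RFI pigs had a mean of 3.49 ± 0.17 on the brightest probe, A_72_P165041, against 3.38 ± 0.21 in restricted and 3.33 ± 0.17 in high-RFI pigs. Its low-RFI against high-RFI difference was above 0 on all 6 slides, with an exact permutation p of 0.0858. Across pigs, A_72_P165041, A_72_P744089 and A_72_P223392 correlated at 0.770 to 0.907 with each other and at 0.522 to 0.594 with A_72_P704823. After centring on slide its 3 correlations with them were 0.272, 0.383 and 0.188, with adjusted permutation p of 0.223, 0.0824 and 0.388, and no longer passed. Whether the probes differ in their group differences was not tested.

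MEF2C, the family member needed for sarcomere integrity in mouse muscle, also had 4 probes. Probe A_72_P156751, which the files annotate to a different GenBank entry from the other 3 and place at base 3991, gave the lowest p of all 14. It had levels of 2.84, 3.32 and 3.86 (lowest, median, highest) in low-RFI pigs. In restricted pigs they were 1.80, 2.76 and 3.31. In high-RFI pigs they were 2.30, 3.05 and 3.65. Low-RFI pigs were mostly high and restricted pigs mostly low, the high-RFI mean of 3.003 lay between theirs, and all groups overlapped. The low-RFI mean was 3.36 ± 0.37 and the restricted mean 2.69 ± 0.51, a difference of 0.67 (SE 0.24, 95% interval 0.18 to 1.17, 1.59-fold). Its unadjusted limma p was 0.010 and its exact permutation p 0.0132, and its adjusted p was 0.328. With normexp the difference was 1.08, with an adjusted p of 0.506. The F test over the groups gave an unadjusted p of 0.034 and an adjusted p of 0.356. The difference was 0.96 within the first scan day and 0.32 within the second, and above 0 on 5 of 6 slides. The same probe gave -0.31 between restricted and high-RFI pigs in all, but -0.90 within the first scan day and 0.27 within the second, so that sign did not hold within days.

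The 3 remaining MEF2C probes gave smaller low-RFI against restricted differences of 0.08 (A_72_P024306), 0.02 (A_72_P302709) and 0.07 (A_72_P441060), with SEs of 0.17 to 0.18. These values depended on the scaling, and with normexp they were 0.63, 0.34 and 0.35, each with a limma adjusted p of 0.506. Without normexp, the 3 probes in the same order gave 0.0055, 0.24 and 0.32 between low-RFI and high-RFI pigs. Between restricted and high-RFI pigs they gave -0.07, 0.21 and 0.25. The 0.32 of A_72_P441060 compared 1.33 ± 0.34 in low-RFI with 1.01 ± 0.39 in high-RFI pigs (limma adjusted p 0.545). Correlations between these 3 probes ran from 0.816 to 0.933 across pigs. Those with A_72_P156751 were 0.664, 0.485 and 0.659, and of the 14 pairs of probes of 1 gene 13 passed an adjusted permutation p of 0.05, all but the MYOG pair. After centring on slide 10 passed, all but the MYOG pair and the 3 pairs with MEF2A A_72_P704823. Whether the 4 MEF2C probes differ in their group differences was not tested, and no single MEF2C difference is reported.

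The sequence of MEF2C A_72_P024306 was compared with the other probes because MEF2B, a close relative, had the pattern most like it of 4091 named genes. The MEF2B probe matched it without a gap over 60 bases, with 51 alike and 9 unlike, and the unlike bases are in capitals. This pair was examined after its values were seen.
MEF2C A_72_P024306: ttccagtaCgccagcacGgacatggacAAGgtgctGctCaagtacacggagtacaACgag
MEF2B A_72_P301754: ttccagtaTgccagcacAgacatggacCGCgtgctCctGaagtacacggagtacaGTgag
Across the 23 pigs the levels of these probes correlated at 0.961, and at 0.977 after centring on slide. With the other 3 MEF2C probes the MEF2B probe correlated at 0.645 to 0.851. The transcripts listed for A_72_P024306 in the files include 1 that the files elsewhere describe as MEF2D. How much of its signal came from MEF2B or MEF2D RNA was not tested, and its values are uncertain as a measure of MEF2C alone. The first 23 bases of MEF2A A_72_P704823 match the end of the same MEF2C probe at 17 positions, and the unlike bases are in capitals.
MEF2A A_72_P704823: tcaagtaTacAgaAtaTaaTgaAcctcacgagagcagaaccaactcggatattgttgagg

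**Figure D3:**
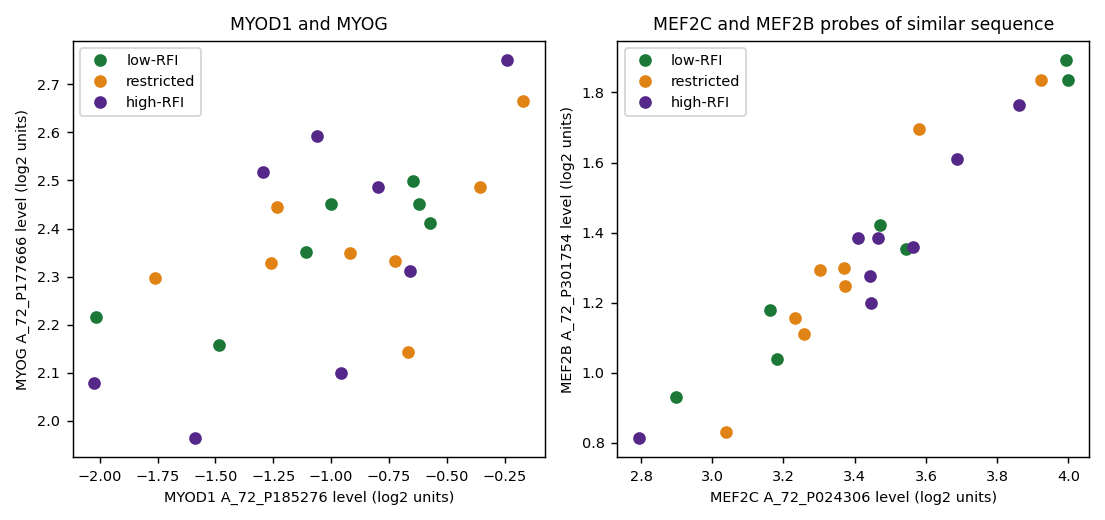
Left, MYOG A_72_P177666 level against MYOD1 A_72_P185276 level; right, MEF2B A_72_P301754 level against MEF2C A_72_P024306 level (all axes in log2 units). Each point is 1 of 23 pigs, coloured by group; r is 0.632 on the left and 0.961 on the right, where the points lie near a line in all 3 groups.

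Correlations between the 6 measured genes across pigs, each by its brightest probe, gave 15 pairs. Of these, 1 passed an adjusted permutation p of 0.05. MYOD1 and MYOG had an r of 0.632 (permutation p 0.00122, adjusted 0.0183) and a Spearman rho of 0.571 (p 0.00559, adjusted 0.0838). Pigs with high MYOD1 tended to have high MYOG. After centring on group r was 0.632 (adjusted p 0.0178), and after centring on slide 0.612 (adjusted p 0.0306). Within the scan days r was 0.754 and 0.299. Without the 2 pigs farthest from the MYOD1 median r was 0.564 with an adjusted p of 0.121, and the call was lost. It was also lost without high-RFI replicate 2 (r 0.578, adjusted p 0.057), without high-RFI replicate 5 (0.577, 0.0751) and without restricted replicate 8 (0.582, 0.0619). With quantile normalization r was 0.503 (adjusted p 0.173), and with normexp background correction it was -0.41. MSTN had an r of 0.389 with FST and of 0.392 with MYOG, both with an adjusted permutation p of 0.198.

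The 2 named genes whose levels over the 23 arrays were most like each member were picked by their r, so no test is given. All of these values share the arrays' slides and depth of signal. For MSTN they were JADE1, a chromatin factor (r 0.712), and AGPAT5, an enzyme of phospholipid synthesis (0.703). For FST they were the homeobox gene EMX2 (0.731) and NPPC, the precursor of C-type natriuretic peptide (0.664). For MYOD1 they were C7H15orf40 (0.701) and PPP1R3D, a glycogen-targeting subunit of protein phosphatase (0.698). For MYOG they were the nucleoside transporter SLC29A1 (0.716) and the peptidase NLN (0.716). For MEF2A they were the peptidase PREP (0.836) and the lipoprotein receptor VLDLR (0.812). For MEF2C A_72_P024306 the second was ENTPD4, a nucleotidase of the Golgi (0.689).

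No gene of the 4 pathway lists changed at an adjusted p under 0.05 in any comparison, in limma. Of the myostatin pathway list, which holds ligands, receptors, SMAD messengers and antagonists, 13 of 23 genes were measured. Of these 7 lay higher and 6 lower in low-RFI than in high-RFI pigs, with a median difference of 0.04, and 4 higher and 9 lower in low-RFI than in restricted pigs, with a median of -0.07. The receptor gene ACVR2B averaged -1.84 ± 0.16 in low-RFI, -2.14 ± 0.34 in restricted and -2.08 ± 0.23 in high-RFI pigs. Its low-RFI against restricted difference of 0.30 had an unadjusted limma p of 0.035 and an adjusted p of 0.448. SMAD3, a signal carrier of the pathway, averaged 1.61 ± 0.20 in restricted against 1.27 ± 0.34 in high-RFI pigs, a difference of 0.34 (unadjusted limma p 0.018, adjusted 0.375), and 1.35 ± 0.23 in low-RFI pigs. For low-RFI against high-RFI the receptors ACVR1B and TGFBR1 gave 0.30 and -0.16. For low-RFI against restricted SMAD4 gave -0.17. For restricted against high-RFI the ligand GDF11 gave 0.22 and the titin cap protein TCAP, which binds myostatin, 0.16. The GDF11 probe was dim, with a mean level of -4.37.

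Of the list of partners of the myogenic factors, 12 of 28 genes were measured. The median difference was 0.10 between low-RFI and high-RFI pigs, -0.04 between restricted and high-RFI pigs and 0.05 between low-RFI and restricted pigs. SMYD1, a muscle methyltransferase, averaged 0.65 ± 0.22 in low-RFI, 0.34 ± 0.16 in restricted and 0.46 ± 0.24 in high-RFI pigs. Its low-RFI against restricted difference of 0.31 had an unadjusted limma p of 0.013 and an adjusted p of 0.349. Low-RFI against high-RFI differences were -0.21 for ID2, an inhibitor of helix-loop-helix factors, and 0.11 for TEAD4. Restricted against high-RFI differences were 0.20 for TEAD1 and 0.17 for MDFI, which binds and blocks MyoD family proteins. Low-RFI against restricted differences were 0.30 for the repressor SNAI2 and 0.12 for the acetyltransferase EP300.

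Of the satellite cell list, 10 of 24 genes were measured, with 5 higher and 5 lower in low-RFI than in high-RFI pigs and a median of -0.0073. FGFR4, a growth factor receptor of the myogenic lineage, averaged 0.16 ± 0.19 in low-RFI, -0.16 ± 0.21 in restricted and -0.15 ± 0.33 in high-RFI pigs. It differed by 0.31 for low-RFI against high-RFI (limma p 0.026, adjusted 0.369) and by 0.32 for low-RFI against restricted (p 0.022, adjusted 0.406); the comparisons share the low-RFI pigs. VCAM1, an adhesion molecule, gave -0.23 for low-RFI against high-RFI and -0.25 for restricted against high-RFI. FGFR1 gave -0.13 for low-RFI against high-RFI. CALCR, the calcitonin receptor of quiescent satellite cells in mouse, gave 0.35 (SE 0.35) for restricted against high-RFI, on a dim probe with a mean level of -4.72. MET, the receptor of hepatocyte growth factor, gave -0.17 in that comparison. HEY1, a Notch target, and MET gave -0.25 and 0.13 for low-RFI against restricted.

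Of the list of denervation genes and myofibre targets, 10 of 23 were measured. PVALB, the calcium buffer of fast fibres, averaged 5.43 ± 0.70 in restricted against 6.23 ± 0.59 in high-RFI pigs, a difference of -0.80 (unadjusted limma p 0.0072, adjusted 0.274). In low-RFI pigs it averaged 5.98 ± 0.36, and the low-RFI against restricted difference was 0.55. With normexp these PVALB differences were -1.65 and 1.16, still uncalled. ACTC1, a sarcomeric actin, averaged 9.92 ± 0.09 in low-RFI against 9.68 ± 0.14 in high-RFI pigs, a difference of 0.24 (unadjusted limma p 0.012, adjusted 0.298), and the low-RFI against restricted difference was 0.15. DES (desmin) and CKM (muscle creatine kinase) gave 0.16 and 0.17 for low-RFI against high-RFI. These values depended on the scaling. For low-RFI against high-RFI, ACTC1 gave 0.087, DES 0.025 and CKM 0.0075 with quantile normalization, and ACTC1 gave 0.0011 with normexp. The ACTC1 difference from restricted pigs was 0.044 with quantile normalization and 0.72 with normexp. CHRNA1, the acetylcholine receptor subunit that rises after denervation, gave -0.40 for restricted against high-RFI. MYOZ2, a Z-disc protein, gave 0.34 between restricted and high-RFI pigs and -0.47 between low-RFI and restricted pigs. With normexp background correction the sign of at least 1 difference turned for ACVR2B, CHRNA1, CKM, DES, MET, MYOZ2, SMAD3, SMAD4, SNAI2, TCAP, TEAD1, TEAD4 and TGFBR1 of these 4 lists. Each list gene stands for its brightest kept probe, and for 5 of the differences given another probe of the gene had the opposite sign. These probes gave -0.18 for SNAI2 and 0.10 for SMAD4 between low-RFI and restricted pigs, -0.06 for GDF11 and -0.04 for TEAD1 between restricted and high-RFI pigs, and 0.06 for FGFR1 between low-RFI and high-RFI pigs. For SMAD3 and MDFI another probe gave 0.02 and 0.0060 where 0.34 and 0.17 are printed for restricted against high-RFI.

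**Figure D4:**
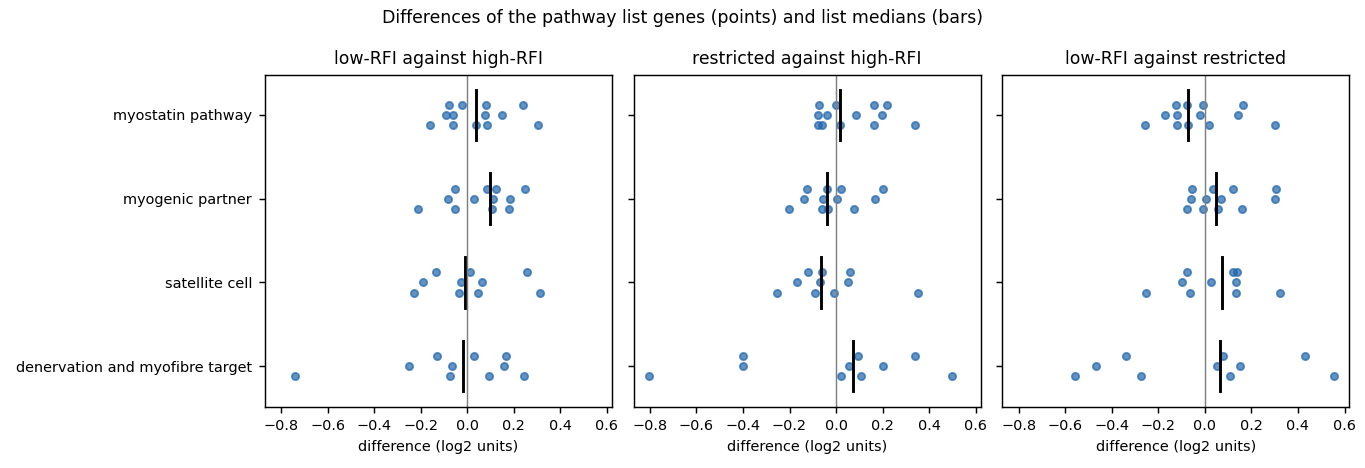
Difference between groups (log2 units, x axis) of each measured gene (points) of the 4 pathway lists (rows) in the 3 comparisons, with the list median as a bar. The medians lie between -0.07 and 0.10, and no gene passes the adjusted threshold.

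Markers of the cells in the samples were read beside these values. The mean level of 10 muscle fibre markers on each array was 8.67 to 8.86 in low-RFI and 8.58 to 9.11 in restricted pigs. In high-RFI pigs it was 8.52 to 8.86, and it lay far above the 75th percentile of the arrays in all groups. All 6 measured adipocyte markers had lower means in low-RFI than in high-RFI pigs, with a median difference of -0.63. Their mean level on each array was 0.19 to 1.54 in low-RFI and -0.16 to 2.57 in high-RFI pigs. Against restricted pigs, 5 of the 6 were lower in low-RFI pigs, with a median of -0.52. The mean level of all 6 was 0.28 to 2.03 in restricted pigs. All 4 macrophage and leukocyte markers had lower means in low-RFI than in high-RFI pigs (median -0.29), and 8 of 10 muscle fibre markers had higher ones (median 0.14). The fibre markers DES and CKM depended on the scaling, as given above. Lower means were also found for 3 of 4 endothelial markers (median -0.15) and 2 of 3 fibroblast markers (median -0.06). Of 2 Schwann cell markers, 1 lay higher and 1 lower. Against restricted pigs, 3 of 4 leukocyte markers were lower in low-RFI pigs (median -0.13) and 7 of 10 fibre markers higher (median 0.05). So were 3 of 4 endothelial markers (median 0.16) and all 3 fibroblast markers (median 0.02). Restricted pigs had lower means than high-RFI pigs for all 4 endothelial markers (median -0.24) and 3 of 4 leukocyte markers (median -0.15). The same held for 4 of 6 adipocyte markers (median -0.06), while 8 of 10 fibre markers were higher (median 0.05). Each marker stands for its brightest kept probe, and for some markers another probe had the opposite sign. Such a probe gave 0.012 for LEP between low-RFI and high-RFI pigs and 0.079 for CDH5 between restricted and high-RFI pigs. For DCN another probe gave -0.21 between low-RFI and restricted pigs. The 4 leukocyte markers had no such probe between low-RFI and high-RFI pigs. None of these markers passed the adjusted threshold, and their part in the member values was not tested.

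The 6 probes just outside the rule had a description that named a member but no matching symbol, so their identity is less certain. A_72_P213442, described as MYF6, averaged 5.46 ± 0.66 in low-RFI, 6.22 ± 0.84 in restricted and 5.86 ± 0.63 in high-RFI pigs. The groups overlapped, and the low-RFI against restricted difference of -0.76 (SE 0.35) had an unadjusted limma p of 0.039 and an adjusted p of 0.461. It was below 0 on all 6 slides, at -1.16 within the first scan day and -0.25 within the second. Its exact permutation p was 0.074. Another 3 probes carry the same cluster name, TC438008. Of these A_72_P216517 is described as the myogenic factor-5 of buffalo, A_72_P442724 has the gene ID of MYF5 in the Sscrofa11.1 RefSeq table although it is described as MYF6, and A_72_P365243 is described as MYF6. MYF5 and MYF6 lie on the same chromosome in that table.

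A_72_P216517 had levels of -2.55, -1.74 and -1.29 (lowest, median, highest) in low-RFI pigs. In restricted pigs they were -2.94, -2.62 and -1.63. In high-RFI pigs they were -2.66, -2.38 and -1.59. Low-RFI pigs were mostly above restricted pigs, with overlap. The low-RFI against restricted difference was 0.71 (SE 0.21, 95% interval 0.27 to 1.15, 1.63-fold), with a limma p of 0.0030, an adjusted p of 0.227 and an exact permutation p of 0.0107. A_72_P365243 gave 0.36 (SE 0.29) in the same comparison. A_72_P442724, too dim to be tested with the rest and well above background on 5 of 7 low-RFI, 2 of 8 restricted and 3 of 8 high-RFI arrays, gave 0.93 (SE 0.34) in a fit without the filter. No follistatin-described probe outside the rule gave an unadjusted p under 0.05. A_72_P108001 gave -0.18 for low-RFI against high-RFI and -0.10 for restricted against high-RFI, and A_72_P265062 was well above background on 2 arrays.

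**Figure D5:**
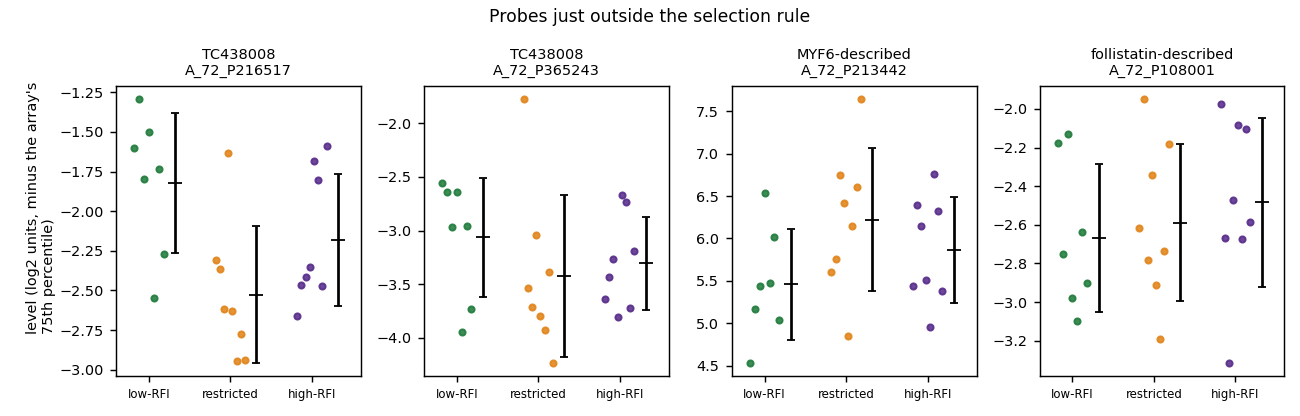
Level (y axis, log2 units) of 4 probes just outside the selection rule in each pig (points), with the mean and SD, for low-RFI, restricted and high-RFI pigs. Low-RFI pigs lie mostly above restricted pigs on A_72_P216517 and mostly below them on A_72_P213442, and all groups overlap.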

How the data were processed

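The scanner files held spot intensity values that Feature Extraction 10.7.3.1 had background-subtracted, per the file headers, with 1 array for each of 23 pigs. R 2.10.0 is named in the submitters' processing notes. Set against the scanner files, the deposited log2 table of 26410 probes held the same log2 processed signals less 1 constant for each array, with column medians of 0. It was used as an alternative, and 0 columns of values were left unused. No genome build was named in the files, and no genome was used here.

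Processed signals of the 43803 non-control spots were taken to log2, the 75th percentile of each array was subtracted, spots marked as non-uniform or population outliers were set to missing (484 values in 473 tested probes), and spots of 1 probe were averaged. Of 43603 probes, the 27799 that had a signal well above background on 6 or more arrays of any group were tested. For a pathway gene with several probes the kept probe with the highest mean stood for it. The 3 groups were fitted together in R 4.3.3 with limma 3.58.1, for all 3 pairs of groups and an F test, and p-values were adjusted by Benjamini-Hochberg over all tested probes, with a threshold of 0.05. Exact permutation tests of single probes were two-sided, over all divisions of the pigs. Correlations used 100000 permutations. Sequences are those of the files, and 1 probe sequence is not reported here. The fit was tested on simulated data with 100 probes changed by 1 log2 unit, 100 changed by 0.5 and 27126 left alone. For restricted against high-RFI 86 and 30, and for low-RFI against restricted 78 and 32 of the changed probes were called. Of the unchanged probes 7, 7 and 9 were called in the 3 comparisons.

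All 9 members were to be named with all probes, then the genes of each pathway list past the threshold or with the 3 smallest p in each comparison, and the 2 named genes most like each member. The members, lists and tests were chosen with earlier results of these data known. Deviations from the group mean were correlated between pigs that share a replicate number. Of 22 such pairs 7 had an r above 0.1, and the range was -0.30 to 0.33. In 4 pairs the pig of the same number was the best match in the other group. These values cannot exclude a pairing. The groups were fitted as unpaired, with the replicate number as a block among the alternatives.

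The alternatives were median centring, quantile normalization, normexp with an offset of 50, the deposited values, other filters, trend and robust variance, array weights, slide or scan day as a block, the replicate number as a block, fits of 2 groups, outlier spots kept, a threshold of 0.01, the mean of a gene's probes and leaving out each pig. A fit without slide 3 and the correlations between probes of 1 gene were added after the data were seen.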

Additional observations from a re-analysis of the deposited data

Results flagged for a closer look

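A pig that stood apart from the others of its group was looked for by Dixon's test in 54 groups of a probe, and 8 were found. The tests included the tested probes just outside the rule. Chance alone gives about 1 in 20, but probes of the same gene share RNA and pigs, so the tests were not independent. The FST probe A_72_P057356 had a lone low level of -0.0049 in low-RFI replicate 5, and A_72_P640386 a lone high level of 0.31 in restricted replicate 8. For MEF2A, high-RFI replicate 3 was highest at 3.67 on A_72_P165041 and at 0.58 on A_72_P223392, and restricted replicate 3 was highest at 3.49 on A_72_P744089. For MEF2C, high-RFI replicate 1 was lowest at 2.79 on A_72_P024306. The dim MYOG probe A_72_P213577 had lone high levels of -1.91 in high-RFI replicate 1 and of -2.04 in restricted replicate 7.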

How the results depend on the processing

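No member probe passed the adjusted threshold under any of 38 settings, over 1593 differences with a lowest adjusted p of 0.186, and no pathway list gene did. The sign of a member difference held under all settings for 21 of 42 differences and turned at least once for the others. By exact permutation without adjustment 1 probe had a p under 0.05 between restricted and high-RFI pigs and 1 between low-RFI and restricted pigs. With the replicate number as a block 0 member probes were called in each comparison, and the differences that turned were -0.020 (MEF2C A_72_P024306) and 0.068 (FST A_72_P640386), both low-RFI against high-RFI. The cause of each turn below was not tested.

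Turns of low-RFI against high-RFI were as follows. FST A_72_P640386 became 0.013 with median centring, 0.029 with normexp, 0.045 with array weights and 0.0070 without slide 3. MEF2C A_72_P024306 became -0.017 with quantile normalization, -0.19 with normexp, -0.0037 on the deposited values, -0.0053 with slide as a fixed block and -0.0021 with scan day as a block. MYOG A_72_P177666 became -0.020 with quantile normalization, -0.15 with normexp, -0.027 and -0.0023 with slide as a fixed and a random block, and -0.0012 with scan day as a block. MYOD1 A_72_P185276 became -0.0030 with quantile normalization, -0.095 and -0.028 with slide as a fixed and a random block, and -0.017 with scan day as a block. With normexp MEF2A A_72_P165041 became -0.048, MEF2A A_72_P744089 -0.065, CKM -0.085, DES -0.11, TEAD4 -0.0021 and TGFBR1 0.11.

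For restricted against high-RFI, quantile normalization gave -0.0085 for MEF2A A_72_P165041, -0.024 for MYOG A_72_P177666 and -0.011 for MEF2A A_72_P223392. Slide as a fixed block gave -0.019 for MYOG A_72_P177666, and leaving out slide 3 gave 0.0011 for MEF2C A_72_P024306. Normexp gave -0.74, -0.14 and -0.60 for MEF2A A_72_P165041, A_72_P223392 and A_72_P744089, -0.52 for MYOG A_72_P177666, -0.24 and -0.14 for MEF2C A_72_P302709 and A_72_P441060, 0.017 for FST A_72_P640386, 0.54 for CHRNA1, 0.55 for MET, -0.51 for MYOZ2, -0.068 for SMAD3, -0.67 for TCAP and -0.62 for TEAD1.

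For low-RFI against restricted, MSTN became 0.0014 with quantile normalization and 0.056 with normexp. MYOG A_72_P177666 became 0.0049 with quantile normalization, 0.37 with normexp, 0.0082 with array weights and 0.00076 without slide 3. MEF2C A_72_P302709 became -0.0055 with median centring and -0.0062 with slide as a fixed block. Normexp gave -0.16 for ACVR2B, -0.31 for MET, 0.14 for MYOZ2, 0.034 for SMAD3, 0.34 for SMAD4 and -0.25 for SNAI2.

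Leaving out each pig in turn left 0 members called. The ranges that crossed 0 for low-RFI against high-RFI were -0.089 to 0.10 (MEF2C A_72_P024306), -0.015 to 0.10 (FST A_72_P057356), -0.043 to 0.069 (MYOG A_72_P177666), -0.12 to 0.17 (MYOD1) and -0.23 to 0.13 (FST A_72_P640386). For restricted against high-RFI they were -0.0055 to 0.096 (MEF2A A_72_P165041), -0.025 to 0.088 (MYOG A_72_P177666), -0.039 to 0.046 (MEF2A A_72_P223392) and -0.0040 to 0.12 (MEF2A A_72_P744089). For low-RFI against restricted they were -0.0095 to 0.17, -0.050 to 0.10 and -0.0040 to 0.16 (MEF2C A_72_P024306, A_72_P302709 and A_72_P441060), -0.12 to 0.12 (MSTN), and -0.053 to 0.022 and -0.20 to 0.041 (MYOG A_72_P177666 and A_72_P213577).

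Of the 15 correlations between genes 1 was called. There were 6 with normexp, and 0 with quantile normalization, within either scan day, without slide 3 and without the 2 farthest pigs. Leaving out single pigs gave 0 to 1. The r of MYOD1 with MYOG was -0.41 with normexp, and that of MSTN with MYOG -0.048. The r of the MYOG probes was -0.082 with median centring and -0.87 with normexp, and -0.083 to 0.14 without single pigs. Of the 14 pairs of probes of 1 gene 13 were called, and 10 after centring on slide, 11 without slide 3 and 9 and 11 within the scan days. MYOG A_72_P213577 was well above background on 21 of 23 arrays.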
